A study of Mus musculus with 12 samples.

Results

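The genes described here encode the proteins of the cytosolic ribosome: 81 of the 43432 gene identifiers in the count table. They are the protein-coding genes whose symbol names a protein of the large subunit (Rpl and Rplp, 49 genes) or of the small subunit (Rps and Rpsa, 32 genes), without kinases and annotated pseudogenes, that had at least 10 counts in 3 or more libraries. By symbol alone there were 83; Rpl10l, with a single count in 1 library, and Rpl39l, with none in any library, were under the minimum. All 81 passed the filter on low counts that precedes the tests.

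The RNA came from gastrocnemius, the large calf muscle, of male mice, and each of 4 groups held 3 libraries labelled as separate samples. The groups were exercised cFeimin MKO mice, exercised fl/fl mice, sedentary cFeimin MKO mice and sedentary fl/fl mice. Exercise was a single run of 90 min at a constant 60% of maximal running speed. The fl/fl mice, called WT in the labels, were littermates of the MKO mice, which are labelled as lacking cellular Feimin (cFeimin). The sources used here do not give what drove the deletion, the age and strain of the mice or the time between run and sampling. They do not say either that the samples came from separate animals, so a p-value reflects only how far these 12 libraries spread. B230219D22Rik, the mouse gene for Feimin, had 3.52 to 4.58 CPM (counts scaled to library size) in exercised MKO muscle, against 21.6 to 29.8 CPM in exercised WT muscle. In sedentary muscle it had 3.63 to 6.12 CPM in MKO, against 21.7 to 24.2 CPM in WT.

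Each library held 14324010 to 14563501 counts. Fibre genes marked the tissue as skeletal muscle: 7 of them, all detected, summed to between 93996 and 135835 CPM in the 12 libraries. Of 5 T and B cell markers none was detected in every library, and Cd3g was at 0 throughout. Sedentary MKO replicate 3 stood apart in its slow-fibre markers, which summed to 64.7 CPM there and to between 441 and 1389 CPM in the other libraries. In bulk muscle, fewer cells of a type and less RNA per cell cannot be told apart.

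A ribosome is built from ribosomal RNA and one copy, or in the stalk a few copies, of each ribosomal protein, so the genes for these proteins are transcribed in concert and at a high level in growing cells. Their mRNAs begin with a run of pyrimidines, the terminal oligopyrimidine (TOP) motif, through which the kinase mTORC1 and the RNA-binding protein Larp1 set their translation and stability. Striated muscle differs from most tissues in that it replaces the core protein Rpl3, which lies close to the peptidyl-transferase centre, largely by its paralogue Rpl3l.

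The 81 genes together took 0.608% to 0.997% of all counts. The share was 0.801%, 0.751% and 0.869% in exercised MKO muscle, against 0.710%, 0.729% and 0.608% in exercised WT muscle. It was 0.849%, 0.816% and 0.997% in sedentary MKO muscle, against 0.801%, 0.813% and 0.778% in sedentary WT muscle. The exercised WT group thus held the 3 lowest shares, with a mean of 0.682% ± 0.0651 (SD, n = 3). The group means were 0.807% ± 0.0592 in exercised MKO, 0.887% ± 0.0964 in sedentary MKO and 0.797% ± 0.0178 in sedentary WT muscle (SD, n = 3 each). Large-subunit genes had 1.63 to 1.78 times as many counts as small-subunit genes in every library.

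**Figure D1:**
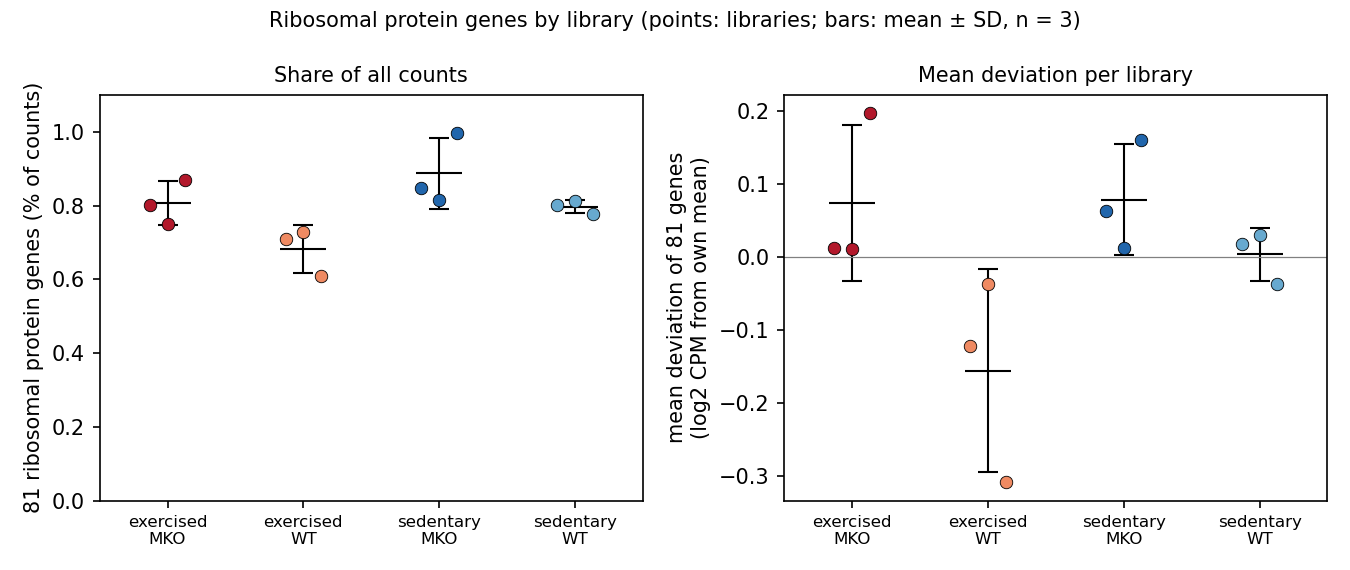
The left panel plots the share of all counts (%) taken by 81 ribosomal protein genes, and the right panel the mean deviation of those genes from their own means (log2 CPM), in each library; points are libraries and bars the mean ± SD of 3. The 3 exercised WT libraries hold the lowest shares, 0.608% to 0.729%, and replicate 5 of that group has the lowest mean deviation, -0.309.

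The members moved together from library to library. After scaling of the libraries, the correlation of a gene with the mean of the other 80 over the 12 libraries had a median of 0.867, and 54 of the 81 genes were above 0.8; all points share the same libraries and their scaling. The stalk proteins Rplp2 and Rplp1, which recruit elongation factors, followed the others most closely, with 0.983 and 0.982. At the other end were Rpl4 (-0.036) and Rpl3l (0.0114), both of the large subunit. Single libraries carried much of the common movement. In exercised WT replicate 5 all 81 genes were below their own mean, by 0.309 on average on the log2 scale. In exercised MKO replicate 4, 79 genes were above it (0.197 on average), and in sedentary MKO replicate 3, 77 genes were (0.161). The remaining 9 libraries averaged between -0.122 and 0.0637. With each library's mean taken out, the standard deviation of a gene over the 12 libraries had a median of 0.0818 on the log2 scale, and 7 genes exceeded 0.15, among them Rpl3 with 0.293, Rpl23a with 0.254 and Rpl3l with 0.199.

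**Figure D2:**
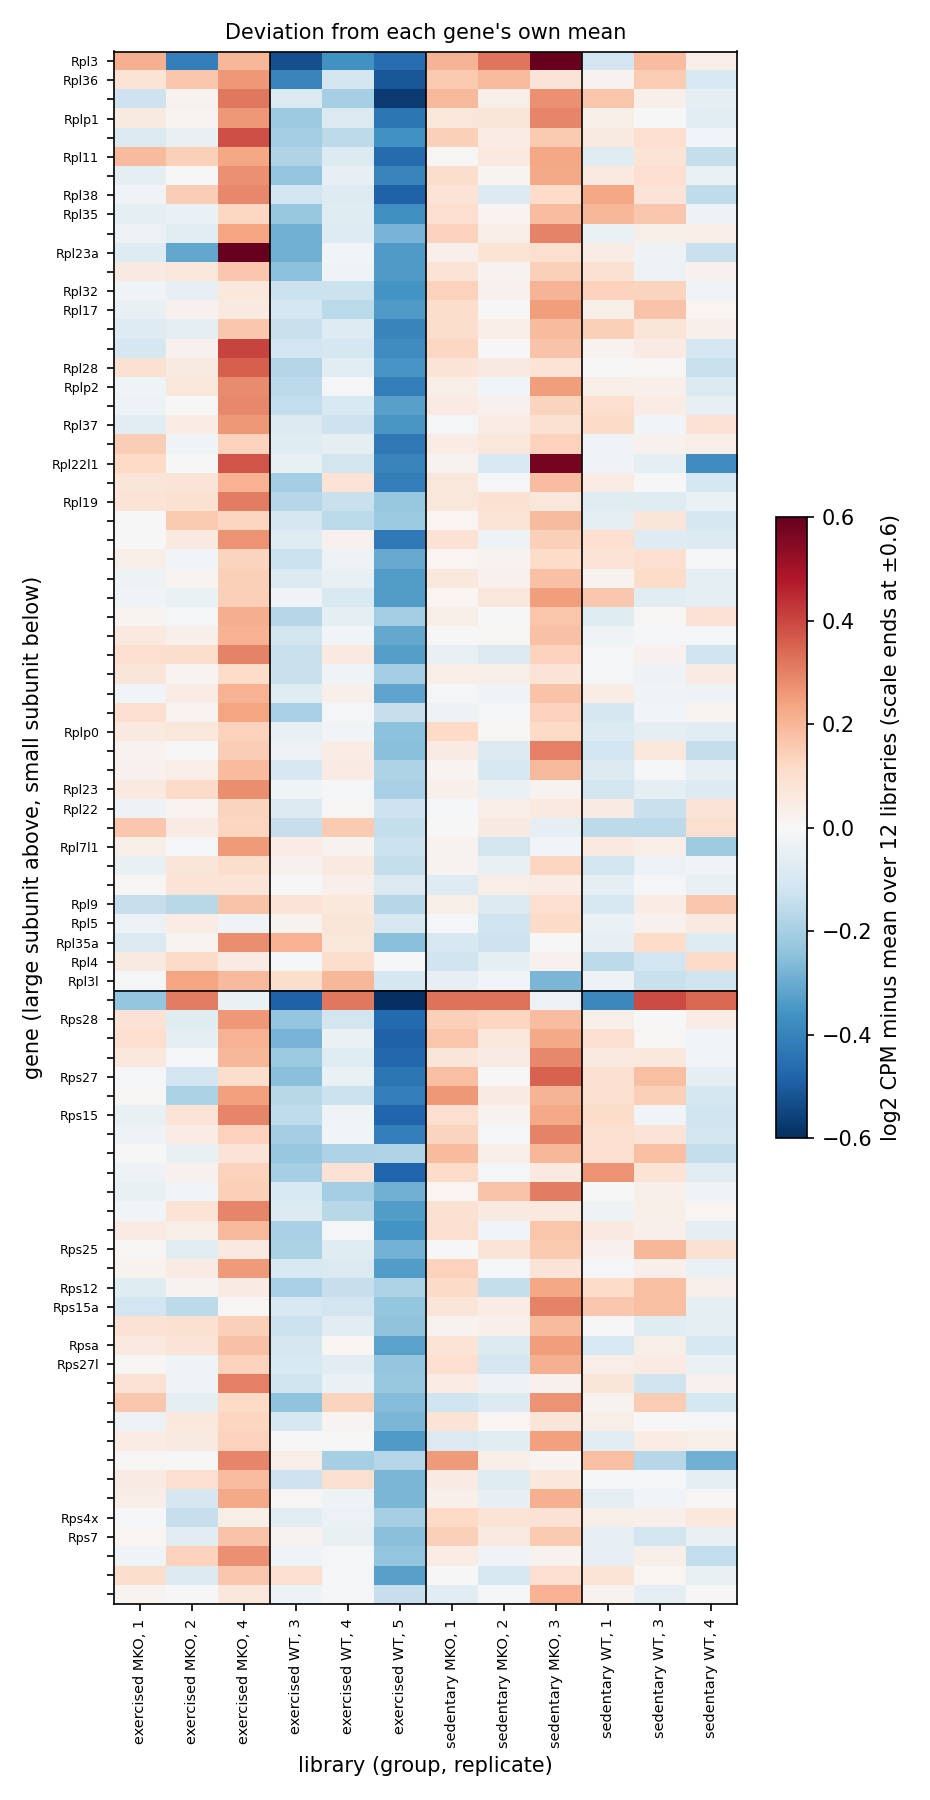
Each row is a ribosomal protein gene (some are labelled) and each column a library, 3 per group, with the large subunit above the small; the colour is log2 CPM minus the gene's mean over 12 libraries, on a scale that ends at ±0.6. Exercised WT replicate 5 is blue in all 81 rows, and exercised MKO replicate 4 is red in 79.

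Levels spread widely among the members. Per kilobase of transcript (the principal isoform in GENCODE), the mean over the 12 libraries ran from 8.56 to 487 CPM, with a median of 97.3 CPM per kb. The highest were Rplp1 with 487 and Rps15 of the small subunit with 434 CPM per kb. Rpl3l came 4th with 305 CPM per kb. The lowest were Rpl3 with 8.56, Rpl7l1, a nucleolar relative of Rpl7, with 16.5, and Rpl17 with 17.6 CPM per kb. Annotated pseudogenes similar to these genes had counts as well. With at least 90% identity over at least 50% of the coding sequence, 728 annotated copies matched 76 of the 81 genes. Of these copies 716 had counts, and whether those reads came from the members or the copies is not known. The copies held 39.6% to 40.3% of the counts of members and copies together in each library, and for 30 members they held more than 50%. The sources used here do not say how reads with several matches were counted, so a gene's own level is uncertain where copies are many. Rpl3 had 18 copies with 65.3% of the joint counts, Rpl7l1 had 4 copies with 7.21%, and Rpl3l had no copy.

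**Figure D3:**
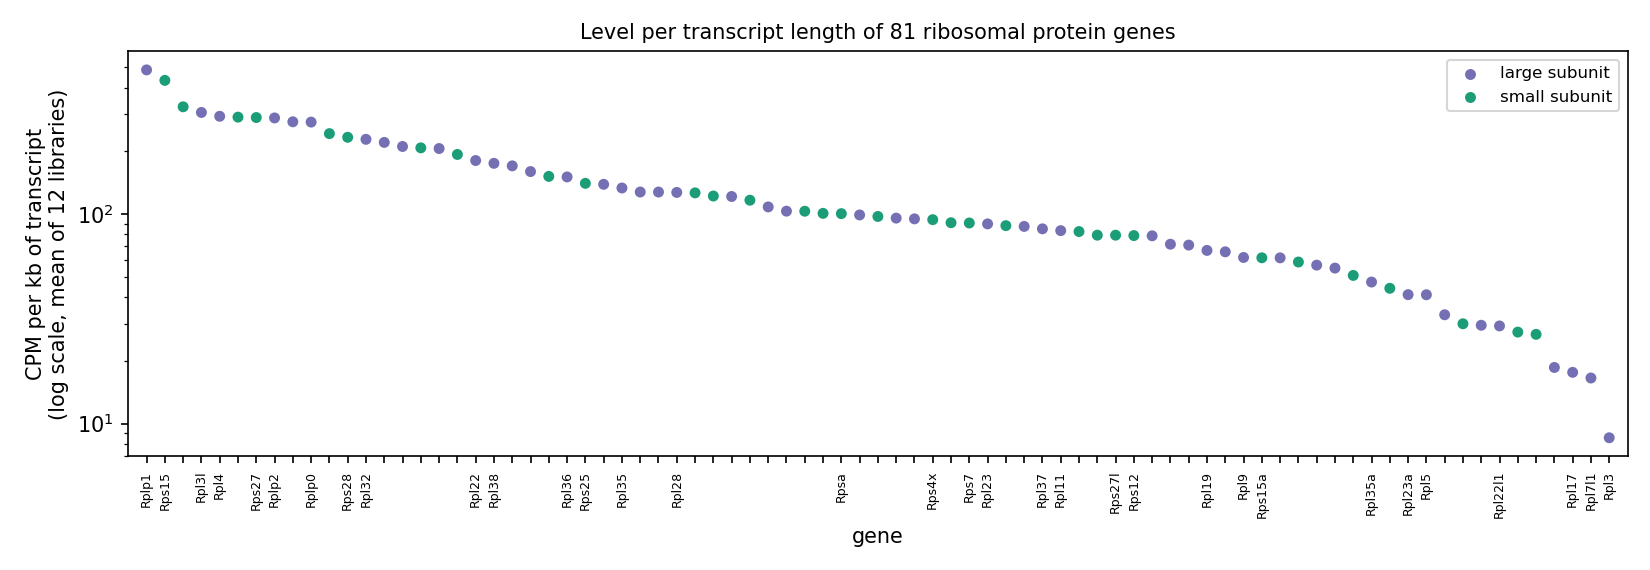
Level of each of 81 ribosomal protein genes, as CPM per kb of transcript averaged over 12 libraries, on a log axis and in falling order; the colours separate the 2 subunits and some genes are labelled. Rplp1 is highest at 487 and Rpl3 lowest at 8.56, while its muscle paralogue Rpl3l stands 4th from the top at 305.

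Promoter windows from RefSeq (GRCm38.p6; 250 bases before to 50 after a listed start) matched 61 of the 81 genes, with 73 windows. A run of 8 or more C or T letters on the gene's strand, searched between 20 bases before and 50 after the start, occurred in 68.5% of these windows and in 25.4% of all 32851 windows. At least 1 window of 48 of the 61 genes held such a run. The letters CCGGAA, on either strand, were in 47.9% of the members' windows and in 14.9% of all windows, and TATAAA, on the gene's strand between 40 and 16 bases before the start, was in 1.37% of the members' windows and in 1.99% of all windows. The start windows of the members below, whose values follow, are shown to let the pyrimidine run be seen; each covers 20 bases before to 30 after the listed start, and capitals mark runs of 8 or more C or T letters. Rpl35 is read on the minus strand of chr2:39005102-39005151, Rps25 on the plus strand of chr9:44407694-44407743, Rpl11 on the minus strand of chr4:136053364-136053413, Rpl28 on the plus strand of chr7:4792945-4792994 and Rpl19 (the second of its 2 listed starts) on the plus strand of chr11:98026904-98026953. Rps28, on the minus strand of chr17:33824533-33824582, and Rpl3l, on the plus strand of chr17:24727806-24727855, have no run of that length in the window shown. The window at the first listed start of Rpl19 (chr11:98026690-98026739, not shown) has none either, its longest run being 5 letters.
Rpl35: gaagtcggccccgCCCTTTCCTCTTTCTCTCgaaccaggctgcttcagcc
Rps25: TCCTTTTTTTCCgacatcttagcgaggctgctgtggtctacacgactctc
Rpl11: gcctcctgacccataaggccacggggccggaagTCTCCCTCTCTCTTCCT
Rpl28: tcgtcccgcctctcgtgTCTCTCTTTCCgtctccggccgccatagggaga
Rpl19: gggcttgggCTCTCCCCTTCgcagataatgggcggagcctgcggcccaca
Rps28: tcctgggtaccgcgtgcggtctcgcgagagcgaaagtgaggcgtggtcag
Rpl3l: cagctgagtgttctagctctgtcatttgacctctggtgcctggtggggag
The longest run was 18 letters in the Rpl35 window, 17 in that of Rpl11, 12 in that of Rps25 and 5 in that of Rpl3l. A run is a match of letters and says nothing on whether the mRNA starts there.

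Between the genotypes after the run, ribosomal protein genes were mostly higher in MKO than in WT muscle, by little each and with none past the threshold. The log2 fold change was positive for 79 of the 81, among them all 32 small-subunit genes, with a median of 0.225 (0.234 for the large and 0.221 for the small subunit), while the median of all 14486 genes tested was 0.00756. No member passed an adjusted p of 0.05 in edgeR's quasi-likelihood test, in which 0.0345% of all genes passed; the lowest adjusted p was 0.203. At an unadjusted p under 0.05 there were 40 members, all higher, against 7.36% of all genes that were higher at that p. All 3 MKO libraries lay above all 3 WT libraries for 43 members (11.1% of all genes), and below them for none. With DESeq2 in place of edgeR, 3 members passed, all higher: Rpl36, Rpl19 and Rpl11. DESeq2 also called more of all genes than edgeR did here (the number is given at the end), so edgeR's 0.0345% is not the share to set beside them.

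Rpl36 (17:56613416-56614243, plus strand, GRCm38), a large-subunit protein, led the list. It had 60.3, 63.6 and 68.1 CPM in exercised MKO muscle, against 43.2, 52.6 and 40.002 CPM in exercised WT muscle. The exercised WT libraries were also below the other 6: it had 63.4, 64.9 and 60.1 CPM in sedentary MKO muscle, against 57.7, 63.1 and 53.5 CPM in sedentary WT muscle. Its log2 fold change between the exercised genotypes was 0.50 ± 0.11 (SE, edgeR adjusted p = 0.203). Rpl11, which besides its place in the ribosome binds Mdm2 and so ties ribosome assembly to p53, had 78.5, 75.9 and 80.9 CPM in exercised MKO muscle, against 60.7, 64.9 and 49.9 CPM in exercised WT muscle. Its groups did not overlap, and its log2 fold change was 0.42 ± 0.11 (SE, edgeR adjusted p = 0.203). Rpl19, of the large subunit, had 53.1, 53.4 and 62.05 CPM in exercised MKO muscle, against 44.5, 45.7 and 42.7 CPM in exercised WT muscle. The groups did not overlap, and replicate 4 was the highest of the MKO libraries. Rpl28 (log2 fold change 0.37) and Rps28, a small-subunit protein near the mRNA exit (0.36), were likewise higher in all 3 exercised MKO libraries, with edgeR adjusted p = 0.205 for each. The 2 members with a negative value were Rpl5 and Rpl9, and Rpl9 had a log2 fold change of -0.03.

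The size of the difference depended on which libraries were kept. Without exercised WT replicate 5 the members' median was 0.156 and 12 members had an unadjusted p under 0.05. Without exercised MKO replicate 4 the values were 0.16 and 10 members. With both of these and sedentary MKO replicate 3 left out, the median was 0.0984, with 69 members positive and 6 at an unadjusted p under 0.05. With the counts of the pseudogene copies added to their members, all 76 genes with copies and the 5 without were positive, the median was 0.245, and again none passed (47 at an unadjusted p under 0.05). In these refits the median of all genes was 0.0135, 0.00365, 0.00619 and 0.0031, in the order given. How many of all genes had an unadjusted p under 0.05 in them is not given here. The counts of members at that p therefore have no background, and whether they exceed it cannot be told.

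Exercise in WT mice went with lower levels of most members. The log2 fold change was negative for 73 of the 81 genes, including all 32 small-subunit genes, with a median of -0.154 (-0.150 for the large and -0.179 for the small subunit), while the median of all genes was -0.00684. None passed in edgeR, in a comparison in which 8.24% of all genes did; the lowest adjusted p was 0.0697. At an unadjusted p under 0.05 there were 21 members, all lower, against 11.1% of all genes that were lower at that p. All exercised libraries lay below all sedentary ones for 30 members (14.8% of all genes), and above them for none (12.5% of all genes). DESeq2 called 4 members lower, Rpl32, Rpl35, Rpl36 and Rps25, and scaling to total counts called 3, Rpl35, Rpl36 and Rps25. Scaling to total counts without mitochondrial genes called 10, all lower, with a members' median of -0.268, and it moved the median of all genes to -0.119. The 8.24% holds for edgeR with TMM factors. The shares of all genes called under these other settings are not given here, so their counts of members have no background. Without exercised WT replicate 5 the median was -0.0848 with 22 members positive, and without replicate 4 of that group Rpl36 passed.

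Rpl36 had the lowest adjusted p here too, with the values given above: a log2 fold change of -0.36 ± 0.11 (SE, edgeR adjusted p = 0.0697), and no overlap between exercised and sedentary WT libraries. Rps25, a small-subunit protein needed for initiation at some viral internal ribosome entry sites, had 70.4, 76.5 and 66.0 CPM in exercised WT muscle, against 81.9, 92.4 and 85.7 CPM in sedentary WT muscle. Its log2 fold change was -0.29 ± 0.09 (SE, edgeR adjusted p = 0.0698). Its exons share 462 bases with Trappc4 and 206 with Ccdc84, both on the opposite strand. Rpl35, which sits by the exit of the nascent chain's tunnel, had 106.9, 119 and 96.8 CPM in exercised WT muscle, against 143.8, 139.8 and 122.5 CPM in sedentary WT muscle. Its exons share 821 bases with Wdr38 on the opposite strand, so part of the counts of Rps25 and Rpl35 cannot be assigned if strand was not used. Rpl32 and Rps12 had log2 fold changes of -0.29 and -0.28 and edgeR adjusted p-values of 0.0935 and 0.106. The 8 positive members all belonged to the large subunit: Rpl15, Rpl23, Rpl35a, Rpl3l, Rpl4, Rpl7, Rpl7a and Rpl7l1.

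Exercise in MKO mice left the members centred near 0. The log2 fold change was positive for 44 and negative for 37, with a median of 0.00652, against 0.00171 over all genes; none passed in edgeR, where 4.05% of all genes did, and the lowest adjusted p was 0.290. At an unadjusted p under 0.05 there were 3 members (15.1% of all genes), and DESeq2 called none, with 1 member at an unadjusted p under 0.05. The exercised and sedentary MKO libraries did not overlap for 5 members: Rpl23, Rpl3l and Rpl4 were higher (10.1% of all genes) and Rps15a and Rps4x lower (11.6%). Rps15a, of the small subunit, had 36.3, 35.3 and 39.6 CPM in exercised MKO muscle, against 41.3, 40.5 and 48.3 CPM in sedentary MKO muscle, a log2 fold change of -0.23 ± 0.10 (SE, edgeR adjusted p = 0.297). Rps4x, the X-linked small-subunit protein, had a log2 fold change of -0.13, and Rpl23, another protein that binds Mdm2, one of 0.15. Without exercised MKO replicate 4 the median was -0.0445, and without sedentary MKO replicate 3 it was 0.0603.

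The difference between the 2 exercise responses (MKO minus WT) was positive for 77 of the 81 members, with a median of 0.159, against 0.00861 over all genes. None passed in edgeR and no gene of the table did (0%); 1 member had an unadjusted p under 0.05, against 3.69% of all genes, and DESeq2 too called none and had 1. That member was Rpl36, with 0.39 ± 0.15 on the log2 scale (SE, edgeR adjusted p = 0.983). Rpl38, whose loss in mice alters the translation of Hox mRNAs, had 0.38, Rpl37 had 0.29 and Rpl19 had 0.20, all with an edgeR adjusted p of 0.983. Rps7 had the lowest value, -0.06. Without exercised WT replicate 5 the median was 0.0802, and without exercised MKO replicate 4 it was 0.0921. A p above the threshold does not show that the responses were alike. The exercised WT libraries enter this difference and both comparisons above, so the 3 sets of values are not separate evidence.

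**Figure D4:**
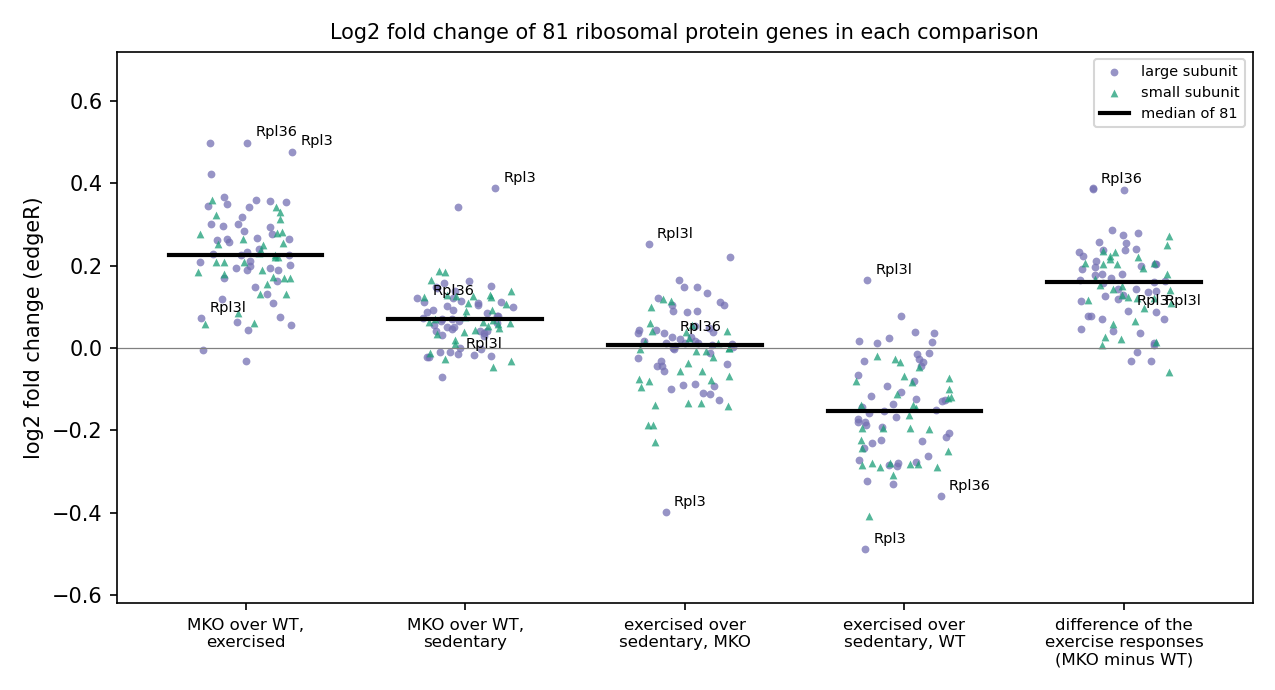
Log2 fold change (edgeR) of 81 ribosomal protein genes in each of 5 comparisons; circles are large-subunit and triangles small-subunit genes, and black bars the medians. The median is 0.225 between exercised MKO and WT muscle, 0.0708 between sedentary MKO and WT muscle, 0.00652 for exercise in MKO and -0.154 for exercise in WT muscle; no gene passed an adjusted p of 0.05.

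At rest the genotypes differed less. The log2 fold change was positive for 68 of the 81 members, with a median of 0.0708, against 0.00198 over all genes. None passed in edgeR, where 0.00690% of all genes did, and every member had an adjusted p of 1. A single member, Rpl3, had an unadjusted p under 0.05 (3.76% of all genes), and DESeq2 called none and had none at an unadjusted p under 0.05. All MKO libraries lay above all WT libraries for 13 members (5.44% of all genes), and below them for none (4.9% of all genes). Rps7, a small-subunit protein that also binds Mdm2, had 81.7, 77.1 and 82.6 CPM in sedentary MKO muscle, against 71.5, 68.6 and 71.8 CPM in sedentary WT muscle. Its log2 fold change was 0.19, and that of Rpl19 was 0.14 and of Rps27a, made as a fusion with ubiquitin, 0.16. Rpl22l1, the paralogue of Rpl22, had 16.1, 14.9 and 23.6 CPM in sedentary MKO muscle, against 15.7, 15.2 and 12.3 CPM in sedentary WT muscle. Replicates 1 and 3 of the MKO group were above all WT libraries and replicate 2 was not; without replicate 3 the log2 fold change of Rpl22l1 was 0.102 in place of 0.34. The lowest value was that of Rpl35a, -0.07. Without sedentary MKO replicate 3 the members' median was 0.0224.

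The paralogues Rpl3 and Rpl3l differed in the sign of their change with exercise. Their coding sequences are 74.4% identical over 1189 aligned bases. Rpl3l (17:24727820-24736143, plus strand) had 415, 491 and 478 CPM in exercised MKO muscle, against 449, 478 and 388 CPM in exercised WT muscle. In sedentary muscle it had 403, 413 and 345 CPM in MKO, against 409, 381 and 384 CPM in WT. Sedentary MKO replicate 3, where most members were high, was the lowest of the 12 libraries for Rpl3l. Its log2 fold change with exercise was 0.25 ± 0.11 in MKO and 0.16 ± 0.11 in WT muscle (SE, edgeR adjusted p = 0.305 and 0.453), and between genotypes it was 0.07 after exercise and -0.02 at rest.

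Rpl3 (15:80077791-80091868, minus strand) had 13.001, 8.44 and 12.9 CPM in exercised MKO muscle, against 7.78, 8.71 and 8.18 CPM in exercised WT muscle. In sedentary muscle it had 12.9, 14.02 and 18.3 CPM in MKO, against 10.4, 12.7 and 11.5 CPM in WT, so that the 3 exercised WT libraries lay below all 6 sedentary ones. The log2 fold change with exercise was -0.40 ± 0.17 in MKO and -0.49 ± 0.18 in WT muscle (SE, edgeR adjusted p = 0.290 and 0.127). Between genotypes it was 0.48 ± 0.18 after exercise and 0.39 ± 0.17 at rest (SE, edgeR adjusted p = 0.243 and 1). The difference between the responses was 0.09 for Rpl3 and for Rpl3l. Rpl3 passed for exercise in WT when the WT groups alone were fitted. Together with its 18 copies Rpl3 had 36.8, 23.8 and 34.6 CPM in exercised MKO muscle, against 21.7, 24.5 and 24.4 CPM in exercised WT muscle. The same sum was 38.4, 42.2 and 51.5 CPM in sedentary MKO muscle, against 32.9, 36.1 and 33.2 CPM in sedentary WT muscle. The order of the groups was thus as for Rpl3 alone.

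Within each library the log2 ratio of Rpl3l to Rpl3 counts needs no scaling. It was 4.99, 5.86 and 5.21 in exercised MKO, 5.85, 5.77 and 5.56 in exercised WT, 4.96, 4.88 and 4.23 in sedentary MKO and 5.30, 4.90 and 5.06 in sedentary WT muscle. Rpl3l thus had 31.8 to 57.9 times the counts of Rpl3 after exercise and 18.8 to 39.3 times at rest. With the counts of its copies added to Rpl3, these ratios were 11.3 to 20.6 after exercise and 6.73 to 12.4 at rest. Over the genotypes, the log2 ratio was 0.653 higher in exercised than in sedentary muscle (exact two-sided permutation within genotypes, p = 0.005, the smallest that 400 arrangements allow; 0.010 adjusted over the 2 tests made). All 3 exercised MKO ratios were above the sedentary MKO ones, and all 3 exercised WT ratios above the sedentary WT ones. The MKO ratios were lower than the WT ratios by a mean difference of -0.383 (exact two-sided permutation within states, p = 0.065, adjusted 0.065). With single libraries left out in turn, this difference ran from -0.509 to -0.27 and its unadjusted exact permutation p from 0.010 to 0.155; it was under 0.05 only without exercised MKO replicate 2, which at 5.86 was the highest of all libraries. With the copies added, the difference was 0.715 between states and -0.35 between genotypes (exact permutation p = 0.005 and 0.070, unadjusted). The pair was taken up with earlier results of these data known.

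**Figure D5:**
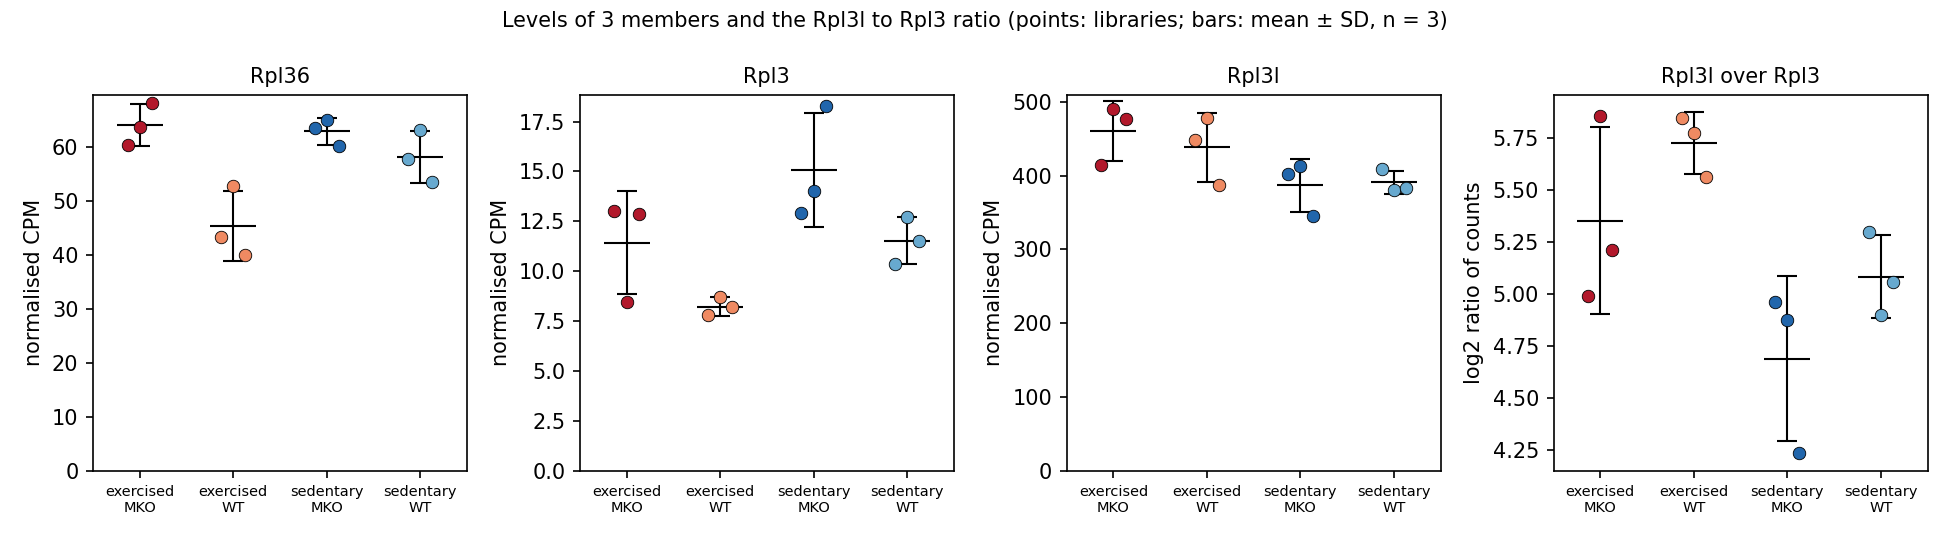
Normalised CPM of Rpl36, Rpl3 and Rpl3l, and the log2 ratio of Rpl3l to Rpl3 counts, by library; points are libraries and bars the mean ± SD of 3 (the ratio axis does not start at 0). Rpl36 is lowest in exercised WT muscle, and the ratio is higher in the exercised than in the sedentary libraries of each genotype.

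Other paralogues were also apart in level; their ratios were not tested. Rpl22 had 87.7 ± 5.13 CPM in exercised MKO, 81.3 ± 3.74 in exercised WT, 87.0 ± 1.99 in sedentary MKO and 85.1 ± 6.52 in sedentary WT muscle (SD, n = 3 each). Rpl22l1 had 17.9 ± 2.42 CPM in exercised MKO, 14.1 ± 1.75 in exercised WT, 18.2 ± 4.73 in sedentary MKO and 14.4 ± 1.84 in sedentary WT muscle (SD, n = 3 each). Between MKO and WT the log2 fold change of Rpl22l1 was 0.35 after exercise and 0.34 at rest, and that of Rpl22 was 0.11 and 0.03; none passed. Rps27 averaged 98.3 ± 7.46 and its p53-responsive paralogue Rps27l 40.5 ± 2.49 CPM in exercised MKO muscle, against 83.9 ± 11.5 and 36.1 ± 2.24 CPM in exercised WT muscle (SD, n = 3 each). In sedentary muscle Rps27 averaged 112 ± 13.7 CPM in MKO and 104 ± 8.64 CPM in WT (SD, n = 3 each). Of the stalk, Rplp0 averaged 395 ± 11.5 CPM in exercised MKO and 347 ± 29.5 CPM in exercised WT muscle, and Rplp1 261 ± 24.4 and 204 ± 24.5 CPM (SD, n = 3 each). Rpsa, the laminin-receptor protein of the small subunit, had 166, 169 and 180 CPM in exercised MKO muscle, against 149, 161 and 128 CPM in exercised WT muscle, with no overlap. In sedentary muscle Rplp0 averaged 393 ± 17.2 CPM in MKO and 355 ± 3.59 CPM in WT, and the 3 MKO libraries of Rplp0 were above the 3 WT libraries in both states.

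Some members share exon bases with other genes. Rpl23a, which anchors factors at the tunnel exit, had 600 counts in exercised MKO replicate 4 and 241 to 397 in the other 11 libraries. Its exons share 506 bases with Tlcd1 on the opposite strand, and Tlcd1 had 29 counts in that library and 115 to 204 in the others. Rpl23a had the highest value of the difference between the responses, 0.39, which was -0.0985 without that library. In all, exons of 22 members overlap those of another protein-coding gene or of a non-coding transcript (snoRNAs and miRNAs not counted), and the sources used here do not say if reads were assigned by strand.

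Genes around the ribosomal proteins moved unevenly. Of related genes outside the naming rule, Fau (a ubiquitin-like fusion that releases a small-subunit protein), Rack1 (a scaffold on the small subunit) and Rpl36al had log2 fold changes of 0.35, 0.11 and 0.22 between exercised MKO and WT muscle, with edgeR adjusted p-values of 0.223, 0.486 and 0.308. Fau had 84.6, 85.1 and 100.8 CPM in exercised MKO muscle, against 72.3, 79.8 and 60.2 CPM in exercised WT muscle. Of 19 other translation genes with TOP mRNAs, 10 were positive between exercised MKO and WT muscle and 10 for exercise in WT mice, with medians of 0.0336 and 0.0227, and none passed. Among them the elongation factor Eef1a1 had 132, 97.2 and 175 CPM in exercised MKO muscle, against 75.45, 80.1 and 94.9 CPM in exercised WT muscle (log2 fold change 0.69 ± 0.18, SE, edgeR adjusted p = 0.203). Its partner Eef2 had a log2 fold change of -0.01 in the same comparison.

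Of 37 genes for ribosome assembly and the nucleolus, 25 were positive for exercise in WT mice, with a median of 0.102, and 2 passed, both higher, where 8.24% of all genes passed in either direction. Nolc1, a nucleolar phosphoprotein, had 29.1, 30.7 and 39.8 CPM in exercised WT muscle, against 22.45, 24.45 and 23.2 CPM in sedentary WT muscle (log2 fold change 0.51 ± 0.11, SE, edgeR adjusted p = 0.0125). Gnl3, nucleostemin, rose by 0.41 on the log2 scale (edgeR adjusted p = 0.0334). For exercise in MKO mice 27 of the 37 were positive with a median of 0.0684, and none passed. Between exercised MKO and WT muscle 14 were positive, with a median of -0.0525, and none passed.

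Of 25 regulators of ribosomal protein genes and their mRNAs, 3 passed for exercise in WT mice, against 8.24% of all genes. Mnt, which opposes Myc, had 43.4, 41.0 and 41.0 CPM in exercised WT muscle, against 8.51, 8.82 and 9.18 CPM in sedentary WT muscle (log2 fold change 2.24 ± 0.10, SE, edgeR adjusted p = 8.03e-07). Rps6kb1, the S6 kinase downstream of mTORC1, was higher by 0.57 and Sp1, a general transcription factor, lower (-0.56), with edgeR adjusted p-values of 0.0132 and 0.00803. In MKO mice, where 4.05% of all genes passed, Mnt was the 1 regulator that did, with 24.4, 28.3 and 24.4 CPM in exercised muscle, against 9.32, 7.21 and 7.67 CPM in sedentary muscle (1.67 ± 0.10, SE, edgeR adjusted p = 1.28e-05). Mnt was also the 1 regulator that passed between exercised MKO and WT muscle (-0.70 ± 0.10, SE, edgeR adjusted p = 0.0411), where 9 of the 25 were positive. Larp1 had a log2 fold change of -0.32 and Myc one of -0.34 there, with edgeR adjusted p-values of 0.264 and 0.401.

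Markers of other cell types differed between the groups in several ways. Macrophage and fibro-adipogenic progenitor markers had the members' direction in most comparisons. The summed level of 9 macrophage markers was 62.6 to 149 CPM in exercised MKO muscle, against 47.7 to 59.0 CPM in exercised WT muscle, and 116 to 160 CPM in sedentary MKO muscle, against 74.6 to 107 CPM in sedentary WT muscle. The 9 markers were all positive between exercised MKO and WT muscle (median 1.14) and all negative for exercise in WT mice (median -0.728, 2 passing, both lower, where 8.24% of all genes passed in either direction). For exercise in MKO mice 2 of 9 were positive (median -0.246) and 1 passed, lower, against 4.05% of all genes, and at rest all 9 were positive with none passing. The sum was lowest in exercised WT replicate 5 (47.7 CPM) and highest in sedentary MKO replicate 3 (160 CPM) and exercised MKO replicate 4 (149 CPM), the libraries in which the members were lowest and highest; it was nearly as high (146 CPM) in exercised MKO replicate 1, where 44 of the 81 members were above their own mean. Markers of fibro-adipogenic progenitors, the connective tissue cells of muscle, summed to 240 to 368 CPM in exercised MKO muscle, against 230 to 261 CPM in exercised WT muscle, and to 539 to 554 CPM in sedentary MKO muscle, against 408 to 509 CPM in sedentary WT muscle. In exercised WT muscle this sum was highest in replicate 5 (261 CPM, against 230 and 235 CPM), where the members were lowest. Replicate 4 of exercised MKO muscle had 368 CPM, against 363 and 240 CPM in replicates 1 and 2. Sedentary MKO replicate 3 had 552 CPM, against 539 and 554 CPM in replicates 1 and 2. All 7 markers were negative for exercise in both genotypes, with medians of -0.674 in MKO and -0.875 in WT mice. Of them 2 passed in MKO mice, against 4.05% of all genes, and 3 in WT mice, against 8.24%. Between MKO and WT muscle 6 of the 7 were positive, both after exercise (median 0.55) and at rest (median 0.216), and none passed. The difference between the responses was likewise positive for 6 of these markers, with a median of 0.401. Red blood cell markers, all 5 detected in every library, summed to 513 to 835 CPM in exercised MKO, 447 to 573 in exercised WT, 1356 to 2276 in sedentary MKO and 419 to 1681 CPM in sedentary WT muscle. Their median log2 fold change with exercise was -1.38 in MKO and -0.906 in WT mice, and all 5 had a negative difference between the responses, where most members had a positive one. In MKO against WT muscle all 5 were positive, with medians of 0.432 after exercise and 0.933 at rest, and none passed. All 6 slow-fibre markers were positive there too, with medians of 0.38 after exercise and 0.58 at rest, and none passed. For exercise in WT mice 4 of the 6 were positive (median 0.285). Between exercised MKO and WT muscle the medians were -0.0225 for 6 endothelial, 0.00183 for 5 smooth muscle and pericyte, 0.255 for 4 satellite cell and 0.339 for 5 Schwann cell markers. For exercise in WT mice they were -0.501 for endothelial, -0.248 for smooth muscle and pericyte and -0.415 for satellite cell markers. All 5 Schwann cell markers were positive there, with a median of 0.281. Of the 6 endothelial markers 5 were negative, and 1 passed in each direction, where 8.24% of all genes passed. They were Flt1 (0.749, edgeR adjusted p = 0.0205) and Tek (-0.975, edgeR adjusted p = 0.00571). Of the smooth muscle and pericyte markers 1 passed, lower, and no satellite cell or Schwann cell marker did. The part of these cells in the members' differences was not tested.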

How the data were processed

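The 81 members and all gene lists were chosen with earlier results of these data known. The values deposited by the authors are raw counts per Ensembl gene for 12 libraries; the labels' protocols speak of 18 libraries, made and sequenced by BGI on DNBSEQ. The submitters' processing notes name HISAT2 2.2.1, SAMtools 1.9, StringTie 2.1.4 and DESeq2 1.40.2, and the build GRCm38.p6. The sources used here do not give how counting treated strand and multiple matches. A misspelt column name was read as exercised MKO replicate 4, since no other title was left. Symbols and positions came from GENCODE M21, which named 42548 identifiers.

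Counts were fitted with edgeR 4.0.16 (R 4.3.3): filterByExpr (minimum count 10, total 15; 14486 genes), TMM factors (0.928 to 1.15), and 1 quasi-likelihood model over all libraries with 8 residual degrees of freedom and a biological coefficient of variation of 15.3%. The threshold was an adjusted p of 0.05 (Benjamini-Hochberg over all 14486 genes). CPM are TMM-normalised, and standard errors come from the F statistic. The model was tested on simulated counts with known changes. Each of these was larger than any change of a member, so changes of the members' size were not tried. Library deviations and correlations used log2 CPM (prior count 2). The Rpl3l to Rpl3 ratio (0.5 added to each count) was tested by exact permutation.

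Pseudogene transcripts were matched to members' coding sequences with BLAST 2.17.0 (at least 90% identity over at least 50% of the coding length). Named members were the 5 of smallest p and the extremes of each comparison, those of highest and lowest level per length, and paralogues; genes of other lists were those that passed, plus Fau, Rack1, Eef1a1, Eef2, Myc and Larp1. Rpl23a, Rpl4 and Rpl5 and the 8 positive members for exercise in WT mice were named after their values were seen. Alternatives were DESeq2 1.42.0, limma-voom (limma 3.58.1), other scalings and filters, fewer groups, a replicate block and libraries left out; copies added to members were chosen after the data were seen. Results for a few genes are left out. No 2 libraries of a group agreed within sampling noise (chi-square per degree of freedom 4.44 to 48.4). Figures were drawn with matplotlib 3.10.9.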

Additional observations from a re-analysis of the deposited data

How the results depend on the processing

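Under all alternatives run, no member passed for exercise in MKO mice, for MKO against WT at rest, or for the difference between the responses. Between exercised MKO and WT muscle 3 members passed with DESeq2, which also called more of all genes there than edgeR did. For exercise in WT mice 3 passed with total counts alone, 10 with total counts without mitochondrial genes, 4 with DESeq2 and 1 with the WT groups alone; leaving out single libraries gave 0 to 1. Total counts without mitochondrial genes moved the median of all genes to -0.119 there, and the members' median was -0.268. How many of all genes passed for exercise in WT mice under these settings is not given here. For exercise in MKO mice the members' median was -0.147 with total counts alone and -0.096 without mitochondrial genes, where the medians of all genes were -0.151 and -0.101. Between exercised MKO and WT muscle the median was 0.0984 without exercised MKO replicate 4, exercised WT replicate 5 and sedentary MKO replicate 3. With single libraries left out the members' medians ran from 0.156 to 0.279 (MKO against WT, exercised), 0.0224 to 0.102 (sedentary), -0.0445 to 0.0603 (exercise in MKO), -0.197 to -0.0848 (exercise in WT) and 0.0802 to 0.208 (difference between the responses). The difference between genotypes in the Rpl3l to Rpl3 ratio ran from -0.509 to -0.27, and that between states from 0.527 to 0.743.

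Some single genes changed sign, none of them passing; most had values near 0, but Rpl23a had 0.39 for the difference between the responses and Rpl23 had 0.148 for exercise in MKO mice. At rest Rpl35a was 0.0165 with total counts alone. Rpl3l was 0.0641 with total counts alone, 0.0182 without mitochondrial genes and 0.0601 without 3 libraries, and -0.0654 to 0.0546 with single libraries left out. Between exercised MKO and WT muscle Rpl3l was -0.0348 without 3 libraries and -0.0109 to 0.143 with single libraries left out, and Rpl9 was 0.0154 without mitochondrial genes, 0.0434 with copies added and -0.155 to 0.0209 with single libraries left out. For exercise in MKO mice Rpl23 was -0.00481 with total counts alone. For the difference between the responses Rpl23a was -0.139 and Rpl3l -0.0949 without 3 libraries, Rpl23a ran from -0.0985 to 0.609 and Rpl3 from -0.0132 to 0.257 with single libraries left out. The cause was not tested.

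Samples with the same replicate number did not deviate together (r between -0.153 and 0.0759 over 10 pairs), and the sources used here do not say what the numbers mark, so they were not taken as pairs; a shared litter, batch or day was not tested otherwise. With the replicate number as a block no member passed in any comparison, while over all genes 602 passed in place of 1193 for exercise in WT mice, 361 in place of 586 in MKO mice and 2 in place of 5 between exercised MKO and WT muscle (95 with DESeq2). The members' medians were 0.228, 0.118, 0.000923, -0.113 and 0.0931 in the order above; Rpl3l was -0.0991 and Rpl9 0.0187 between exercised MKO and WT muscle, and Rpl3l -0.0452 for the difference between the responses.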
